A study of Mus musculus with 23 samples.

Results

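Asporin (Aspn) and its relatives are small leucine-rich proteoglycans, secreted proteins of the extracellular matrix. The 8 genes described here are Aspn, Ogn (osteoglycin), Dcn (decorin), Bgn (biglycan), Fmod (fibromodulin), Lum (lumican), Prelp and Podn (podocan), out of 20145 genes that the probes of the array could be matched to. They were chosen by name after their differences between each compound and the vehicle, and between DOM and DINCH, had been seen, so these differences are given as a description with no test. A member's probes were those whose RefSeq transcript belongs to it. For 7 of the 8 genes this gave 1 probe each, and Prelp was not analysed here.

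The cells were TM4, a mouse testis line of immortalized Sertoli cells, and all results are from this 1 line. They were exposed for 48 hr to 100 μM of MEHP (mono(2-ethylhexyl) phthalate, the active metabolite of the plasticizer DEHP), DINCH (diisononyl cyclohexane-dicarboxylate, a marketed replacement), DOM (dioctyl maleate), BDB (butanediol dibenzoate) or DOS (dioctyl succinate), or to the vehicle. Every group, including the vehicle group called DMSO, received 1% DMSO. There were 4 arrays per group and 3 for DOS (replicates 1, 3 and 4), 23 arrays in all. The 5 comparisons with the vehicle share the same 4 DMSO arrays, and the 3 that involve DOM share its 4 arrays.

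Small leucine-rich proteoglycans carry a core of leucine-rich repeats, and several of them also carry chondroitin, dermatan or keratan sulfate chains. Decorin, biglycan, asporin, lumican and fibromodulin bind collagen and shape the assembly of its fibrils. Decorin, biglycan and asporin can also bind TGF-beta. Asporin is set apart from decorin and biglycan by a run of aspartate residues near its amino terminus.

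The arrays were 1-color arrays on 3 slides. The share of spots well above background ran from 43.4% to 52.2% per array, and none was saturated. A level here is the log2 of a probe's signal minus that of the 75th percentile of its array, so a level of 0 is that of the 75th percentile. Levels of different genes come from different probes, so ranks, shares and sums over genes describe probe signal and not amounts of transcript. RNA came from whole wells, so fewer cells with a transcript and less transcript per cell cannot be told apart. DMSO, DOM and DOS lay in other rows of the slides than MEHP, DINCH and BDB. The slide row therefore cannot be told apart from the treatment in MEHP, DINCH or BDB against DMSO and in DOM against DINCH, whereas DOM against DMSO and DOM against DOS compare arrays in the same rows. Of 18 Sertoli cell markers with a probe, 9 were well above background on all 23 arrays, and Cldn11, Fshr, Gata1 and Wt1 were on none. Of the 12 peritubular and fibroblast markers, 6 were on all 23 arrays, and Col15a1, Fap, Myh11 and Tcf21 were on none.

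Aspn and Ogn lie in one cluster on chromosome 13, where Ecm2, Aspn, Omd and Ogn follow each other, all within the interval of Cenpp, a gene of the kinetochore. Dcn and Lum are neighbors on chromosome 10, followed by Kera. Prelp and Fmod are neighbors on chromosome 1, Bgn is on chromosome X and Podn on chromosome 4. The promoters of Aspn and Ogn are shown because these were the members that were higher with DOM. They are RefSeq sequences of mouse build GRCm38.p6, 250 bases before to 50 bases after the annotated start, both on the plus strand, at chr13:49544193-49544492 for Aspn and chr13:49607765-49608064 for Ogn. Capitals mark the letters TATAAA read on either strand, which in Ogn overlap.
Aspn: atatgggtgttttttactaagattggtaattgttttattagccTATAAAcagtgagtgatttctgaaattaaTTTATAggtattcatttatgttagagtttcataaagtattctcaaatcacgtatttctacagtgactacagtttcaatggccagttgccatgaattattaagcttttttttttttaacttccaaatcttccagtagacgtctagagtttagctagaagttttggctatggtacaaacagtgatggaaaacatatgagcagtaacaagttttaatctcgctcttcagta
Ogn: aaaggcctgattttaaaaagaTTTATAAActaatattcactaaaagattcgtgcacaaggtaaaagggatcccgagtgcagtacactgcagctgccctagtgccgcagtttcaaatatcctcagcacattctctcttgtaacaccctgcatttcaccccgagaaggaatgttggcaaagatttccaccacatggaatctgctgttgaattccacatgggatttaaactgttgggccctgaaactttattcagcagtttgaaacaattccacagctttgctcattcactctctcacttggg
Each of these windows holds TATAAA 2 times, with first bases at -207 and -178 from the start in Aspn and at -229 and -227 in Ogn. Of the 32851 promoters of this length, 13.6% hold TATAAA on either strand. The Aspn window has a GC content of 31.0%, and 1.28% of all promoters have a lower one. The Ogn window has 42.3%, with 14.9% of promoters below it, and the median promoter has 52.7%. The Bgn window, at 63.7%, holds GGGCGG 3 times on the minus strand, a motif found in 35.7% of promoters. CCAAT was found 1 time each in the Aspn, Fmod and Prelp windows and in 37.4% of all promoters. TGANTCA, in 7.81% of promoters, was in none of the member windows read, those of Aspn, Ogn, Bgn, Fmod, Prelp and both of Podn.

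Ogn, Dcn and Bgn were well above background on all 23 arrays. Aspn was dimmer and was well above background on 14 of 23 arrays, which were 4 of 4 with DMSO, 0 of 4 with MEHP, 1 of 4 with DINCH, 4 of 4 with DOM, 3 of 4 with BDB and 2 of 3 with DOS. Fmod was well above background on 7 arrays spread over 5 groups, and Lum and Podn on none. Only Aspn, Ogn, Dcn and Bgn passed the filter of the fit, which asked for 1 of the compared groups to be well above background throughout. Aspn passed it through the DMSO or the DOM arrays, so where it was low it was compared with a group in which it had to be detected.

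Aspn was the member with the widest range of levels, from -6.99 to -0.39. The DMSO arrays read -3.55, -2.85, -2.05 and -2.83 in replicates 1 to 4. The DOM arrays read -2.47, -0.82, -0.39 and -1.40. Of the DOM arrays, 3 of 4 lay above every DMSO array, and replicate 1 lay within the DMSO range. With DINCH the levels were -4.88, -4.22, -4.37 and -4.70, all below every DMSO array. With MEHP they were -6.99, -5.54, -5.01 and -4.56, and none was well above background. The MEHP arrays lay below every DMSO array and overlapped those with DINCH. The BDB arrays read -4.32, -1.65, -1.81 and -2.02, and the 3 DOS arrays read -4.46, -1.59 and -1.93. In both groups replicate 1 lay below every DMSO array and the other arrays lay above them.

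By its means, the Aspn level was highest with DOM (-1.27 ± 0.90, SD, n = 4), followed by BDB (-2.45 ± 1.26, n = 4), DOS (-2.66 ± 1.57, n = 3) and DMSO (-2.82 ± 0.61, n = 4), and neighbors in this order overlapped. The means with DINCH (-4.54 ± 0.30, n = 4) and MEHP (-5.52 ± 1.06, n = 4) were lower. With no MEHP array and 1 DINCH array well above background, the order of MEHP and DINCH was not measured.

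Ogn, which encodes a small proteoglycan first isolated from bone, was bright in every group. Its levels in DMSO replicates 1 to 4 were 4.53, 5.62, 5.76 and 5.56. With DOM they were 6.17, 6.77, 6.70 and 6.77, all above every DMSO array. With MEHP they were 3.89, 4.89, 4.84 and 4.74, of which 1 lay below every DMSO array. With DINCH they were 5.01, 5.30, 5.59 and 5.61, within the DMSO range. The BDB arrays (4.45, 5.66, 5.82 and 5.70) and the DOS arrays (4.92, 6.44 and 6.14) spread over the DMSO range and beyond it.

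Dcn, whose product decorates collagen fibrils, had a different profile from Aspn and Ogn with DOM. Its DMSO levels were 3.49, 4.05, 4.32 and 3.74. With MEHP they were 2.30, 3.04, 3.09 and 2.67, and with DINCH 3.47, 3.09, 3.42 and 3.09, so all 4 arrays of each lay below every DMSO array, by 0.02 in the nearest DINCH array. With DOM they were 2.54, 3.52, 3.97 and 3.10, of which 2 lay below every DMSO array. The BDB levels ran from 3.19 to 4.20 and the DOS levels from 3.27 to 4.15, and both overlapped DMSO.

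Bgn, which like Dcn encodes a chondroitin or dermatan sulfate proteoglycan, had the narrowest range of the 4 detected members. Its levels ran from 2.79 to 3.35 with DMSO and from 2.26 to 2.81 with MEHP, where 2 of 4 arrays lay below every DMSO array. With the other compounds its arrays lay between 2.81 and 3.23, within the DMSO range. Fmod, which binds collagen and carries keratan sulfate, had group means from -4.57 with MEHP to -3.83 with BDB. Lum stayed between -7.19 and -6.04 and Podn between -6.97 and -5.90, both at background on every array.

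**Figure D1:**
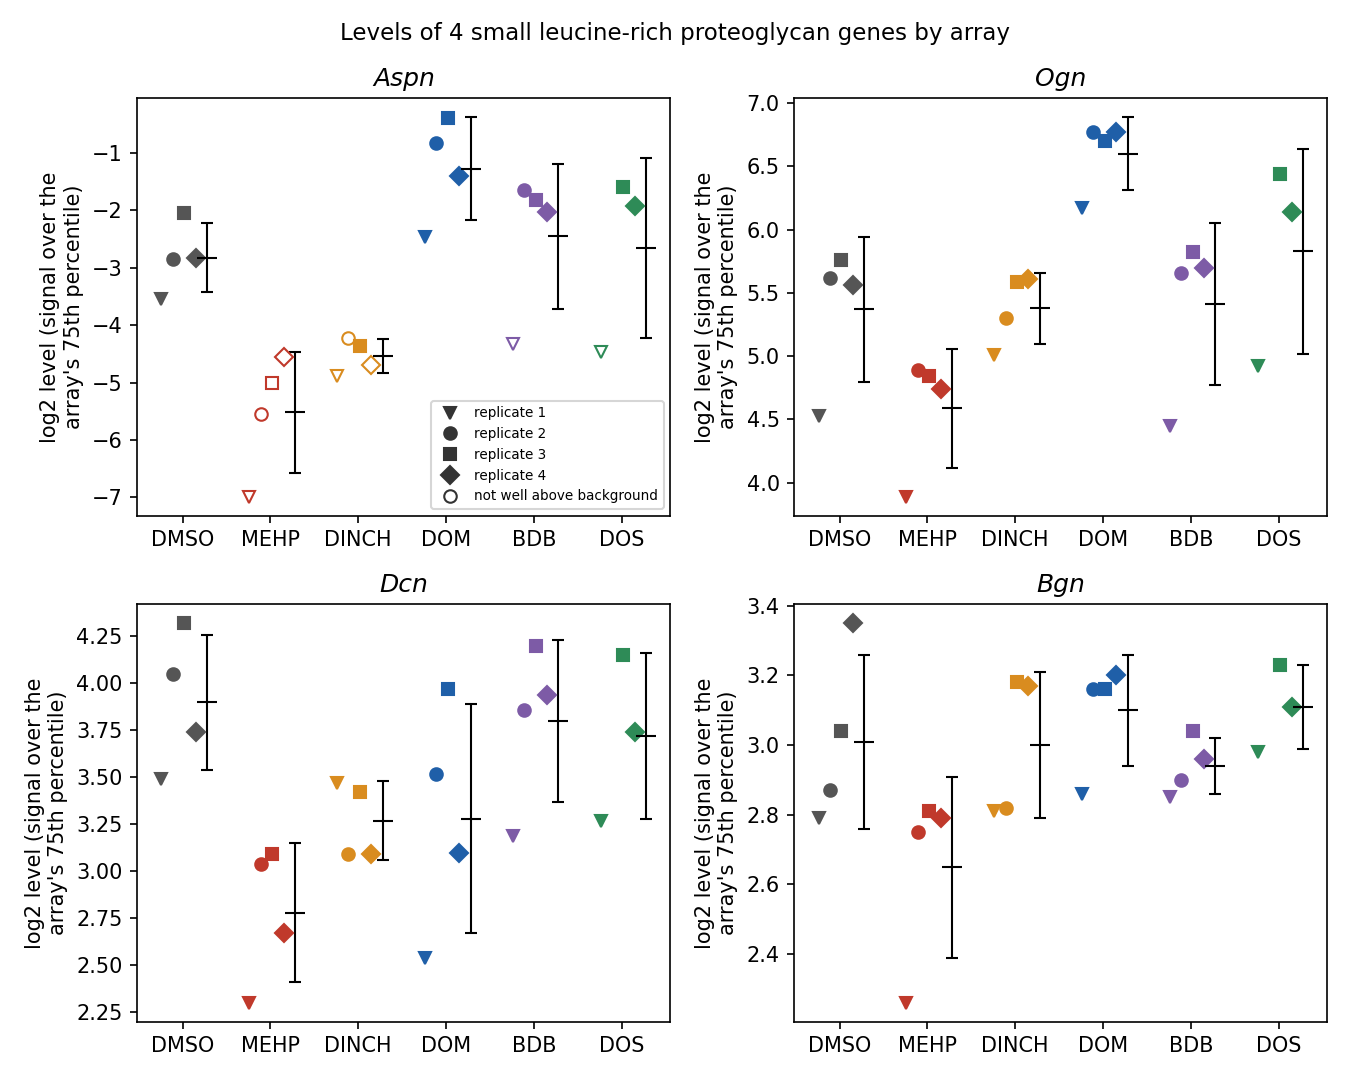
Level of Aspn, Ogn, Dcn and Bgn on each of the 23 arrays (y axis, log2 signal over the 75th percentile of the array) by group (x axis), with 1 marker shape per replicate number, open markers for arrays not well above background, and the mean with its SD at the right of each group. All 4 DOM arrays of Ogn lie above the DMSO arrays, the MEHP and DINCH arrays of Aspn lie below them, and the downward triangles of replicate 1 are the lowest of their group in all 6 groups for Aspn, Ogn and Bgn.

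The replicate 1 arrays were the lowest of their group in 6 of 6 groups for Aspn, Ogn and Bgn and in 5 of 6 for Dcn, with DINCH the exception. For Aspn, replicate 1 differed from the mean of the other arrays of its group by -2.70 to -0.45, and for Ogn by -1.37 to -0.49. Of the 21467 probes well above background on all arrays, 1.96% showed this in every group, and over all probes the median gap between replicate 1 and the other arrays was 0.02. All replicate 1 arrays lay on slide 1, which also held 2 other arrays, MEHP replicate 2 and DOM replicate 2. For Ogn these read 4.89 and 6.77, beside 3.89 and 6.17 in replicate 1 of the same groups. For Aspn they read -5.54 and -0.82, beside -6.99 and -2.47. What set replicate 1 apart was not tested.

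With MEHP, the 4 detected members were all lower on average than with DMSO. The Aspn difference was -2.71 (SE 0.51, n = 4 and 4). No MEHP array had Aspn well above background. These arrays were raised to the dimmest signal well above background of any probe on them, wherever that was the higher. The level was then 3.30-fold lower. This is not a strict lower bound, because a probe above that signal can still be undetected. In DOS replicate 1, Aspn read -4.46 and was not well above background, while the dimmest such signal was -4.54. Dcn differed by -1.12 (SE 0.22, 2.18-fold lower), Ogn by -0.78 (SE 0.31) and Bgn by -0.36 (SE 0.16). When arrays of the same replicate number were paired, each of the 4 detected members was lower with MEHP in 4 of 4 pairs. For Dcn and Ogn these pair differences had a smaller SD than the levels within either group. Without replicate 1 in both groups the Aspn difference was -2.46. With normexp background correction, which adds an offset to every signal, the Aspn difference was -0.52. Within the 3 slides the Aspn difference ran from -2.72 to -1.73 and that of Dcn from -1.09 to -0.82. A slide held only 1 or 2 arrays of each group compared.

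MEHP and BDB lie in the same slide rows, so they were also set side by side, a comparison added after the data were seen. Aspn differed between MEHP and BDB by -3.08, or was 4.26-fold lower with the MEHP arrays raised as above. In BDB replicate 1 Aspn was itself not well above background. Dcn differed by -1.02 (SE 0.24). All 4 MEHP arrays lay below every BDB array for Aspn and for Dcn.

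With DINCH, Aspn and Dcn were lower than with DMSO while Ogn and Bgn were level with it. The Aspn difference was -1.72 (SE 0.29, n = 4 and 4), with 1 of 4 DINCH arrays well above background. With the other 3 arrays raised to their dimmest signal well above background wherever that was the higher, the level was 2.49-fold lower. This too is no strict lower bound. Dcn differed by -0.63 (SE 0.18), Ogn by 0.01 (SE 0.27) and Bgn by -0.01 (SE 0.15). With normexp background correction the Aspn difference was -0.33. The Aspn difference ran from -1.77 to -1.33 within the slides, and that of Dcn from -1.09 to -0.02. Against BDB, in the same slide rows, Aspn differed by -2.09, and 3 of 4 DINCH arrays lay below every BDB array.

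With DOM, Aspn and Ogn were higher than with DMSO and Dcn was lower on average. Aspn differed by 1.55 (SE 0.45, 2.92-fold, n = 4 and 4) and Ogn by 1.24 (SE 0.27, 2.36-fold). Dcn differed by -0.62 (SE 0.30) and Bgn by 0.09 (SE 0.14). Within the 3 slides the differences ran from 1.43 to 2.06 for Aspn and from 1.01 to 1.94 for Ogn. The Ogn value of 1.94 came from slide 1, where 2 DOM arrays met only replicate 1 of DMSO. Between arrays of the same replicate number Ogn differed by 0.94 to 1.64. Dcn was lower with DOM in 4 of 4 such pairs. Its pair differences had a smaller SD than its levels within either group. With normexp background correction the Aspn difference was 0.73.

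With BDB and with DOS, the arrays of each of the 4 detected members overlapped those with DMSO. Aspn differed from DMSO by 0.37 (SE 0.57) with BDB and by 0.16 (SE 0.66) with DOS. Ogn differed by 0.04 (SE 0.35) with BDB and by 0.47 (SE 0.41) with DOS. Between arrays of the same replicate number the Ogn differences ran from -0.08 to 0.14 with BDB (mean 0.04, SD 0.09, 4 pairs) and from 0.39 to 0.68 with DOS (mean 0.55, SD 0.15, 3 pairs, all above 0). The Dcn differences were -0.10 (SE 0.24) and -0.18 (SE 0.25), and those of Bgn -0.08 (SE 0.13) and 0.10 (SE 0.15). Without replicate 1 of both groups the Aspn difference was 0.75 with BDB and 0.81 with DOS.

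Set directly against DINCH, DOM had higher Aspn and Ogn levels. The Aspn difference was 3.27 (SE 0.38, n = 4 and 4), or 7.28-fold with the DINCH arrays raised as above, and it ran from 3.13 to 3.83 within the 3 slides. Ogn was higher by 1.23 (SE 0.18, 2.34-fold), with 1.17 to 1.46 within the slides. All 4 DOM arrays lay above every DINCH array for both genes. Dcn differed by 0.01 (SE 0.27) and Bgn by 0.10 (SE 0.13). With normexp background correction the Aspn difference was 1.06.

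DOM and DOS are dioctyl esters of acids that differ by the carbon-carbon double bond, which maleate has and succinate lacks, and their arrays lie in the same slide rows. Aspn was higher with DOM than with DOS by 1.39 (SE 0.72, n = 4 and 3) and Ogn by 0.77 (SE 0.34). In both genes 3 of 4 DOM arrays lay above every DOS array. Dcn differed by -0.44 (SE 0.33) and Bgn by -0.01 (SE 0.12). Between arrays of the same replicate number Ogn was higher with DOM in 3 of 3 pairs, by 0.26 to 1.25. Without replicate 1 of both groups the differences were 0.89 for Aspn and 0.46 for Ogn. Within slide 1 Aspn differed by 2.82, where 2 DOM arrays met only replicate 1 of DOS. Within slide 3, with 1 DOM and 2 DOS arrays, it differed by 0.36. Between arrays of the same replicate number Aspn differed by 0.53 to 1.99.

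A gene was called if it passed a limma adjusted p of 0.05 with a change of more than 1.5-fold, in a fit over the whole array. Of the genes tested, 1.68% of 11948 were called with MEHP, 8.26% of 11913 with DINCH, 20.5% of 12005 with DOM, 0% of 11969 with BDB and 0% of 11936 with DOS, all against DMSO. Between DOM and DINCH it was 23.3% of 11888, and between DOM and DOS 15.2% of 11935. With BDB and DOS, 3494 and 1725 probes had an unadjusted p below 0.05. The members past the same limits were 2 with MEHP, 1 with DINCH, 2 with DOM, 0 with BDB and with DOS, 2 between DOM and DINCH and 0 between DOM and DOS. Nothing is read from these member counts, because these contrasts with DMSO and DINCH chose the members and the filter let Aspn in through the groups in which it was detected. The counts also rested on single arrays: with MEHP the count was 0 without any of DMSO replicates 2, 3 and 4 or MEHP replicates 2, 3 and 4, and with DOM Aspn was out without DMSO replicate 1, 2 or 4 or DOM replicate 2, 3 or 4.

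**Figure D2:**
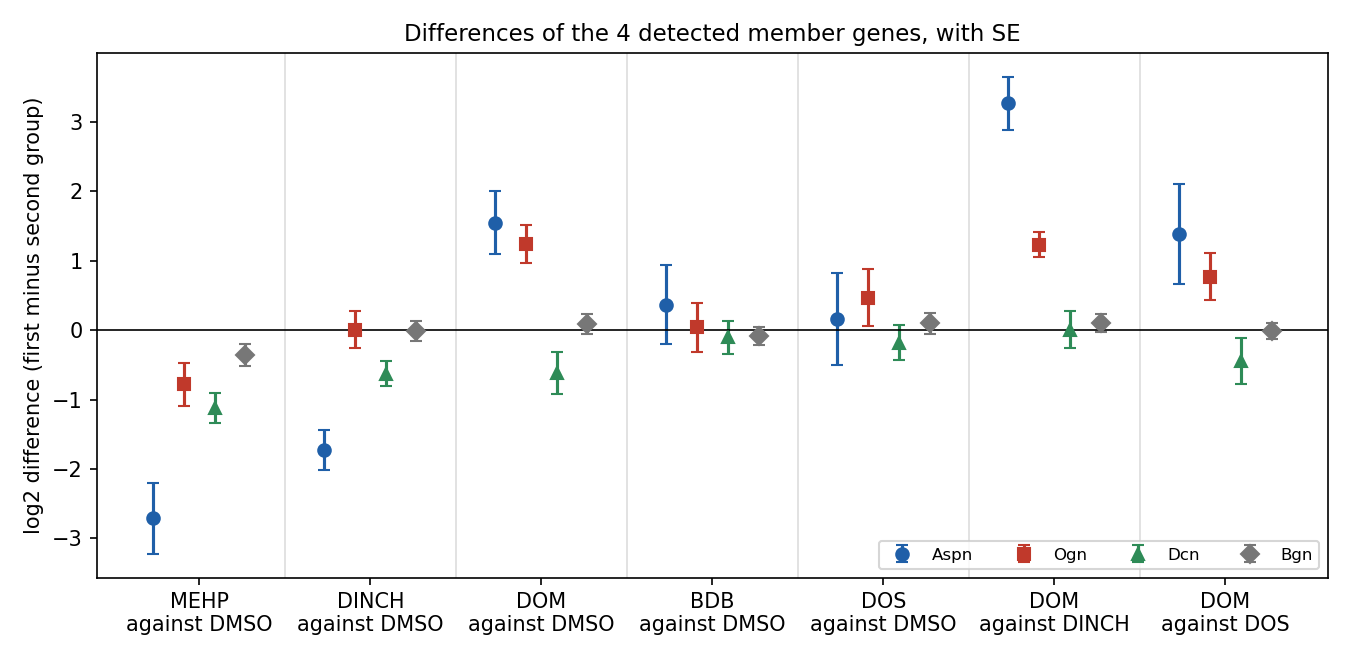
Log2 difference between group means (y axis) of Aspn, Ogn, Dcn and Bgn in 7 comparisons (x axis), with bars for the SE of the fit. Aspn runs from -2.71 with MEHP to 3.27 for DOM against DINCH, Ogn is above 0 wherever DOM is the first group, and Dcn is below 0 in each comparison with DMSO.

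Across the 23 arrays the levels of the detected members moved together to different degrees. The correlation (Pearson's r) with Aspn was 0.87 for Ogn, 0.67 for Dcn and 0.67 for Bgn. After the mean of each group was removed it was 0.89, 0.81 and 0.57. Ogn and Dcn had r = 0.48, and 0.75 after removal of the group means. These are descriptions over arrays that share slides and replicate numbers, and the low replicate 1 arrays enter each of them.

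Among the genes whose levels across the 23 arrays were most like those of Aspn, out of 12162 candidates, were Igf1 (r = 0.958), Col3a1 (0.909), Col22a1 (0.909) and Akr1c14 (0.904). Igf1 encodes a growth factor, and Col3a1 and Col22a1 encode collagen chains. The mean Igf1 level was 1.16 with DMSO, -0.14 with MEHP, 0.09 with DINCH and 2.05 with DOM. The mean Col3a1 level was 5.08 with DMSO, 4.36 with MEHP, 4.21 with DINCH and 6.18 with DOM. Each of these 4 had its highest mean with DOM and its lowest with MEHP or DINCH, as Aspn had. They were picked by this correlation on the same arrays, so the shared order follows from the choice. Igf1 and Col3a1 also had replicate 1 as the lowest array of every group, and the replicate 1 arrays enter each of these correlations too. Aspn itself was well above background on 14 of these 23 arrays. Ogn would have ranked 16 among the candidates.

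**Figure D3:**
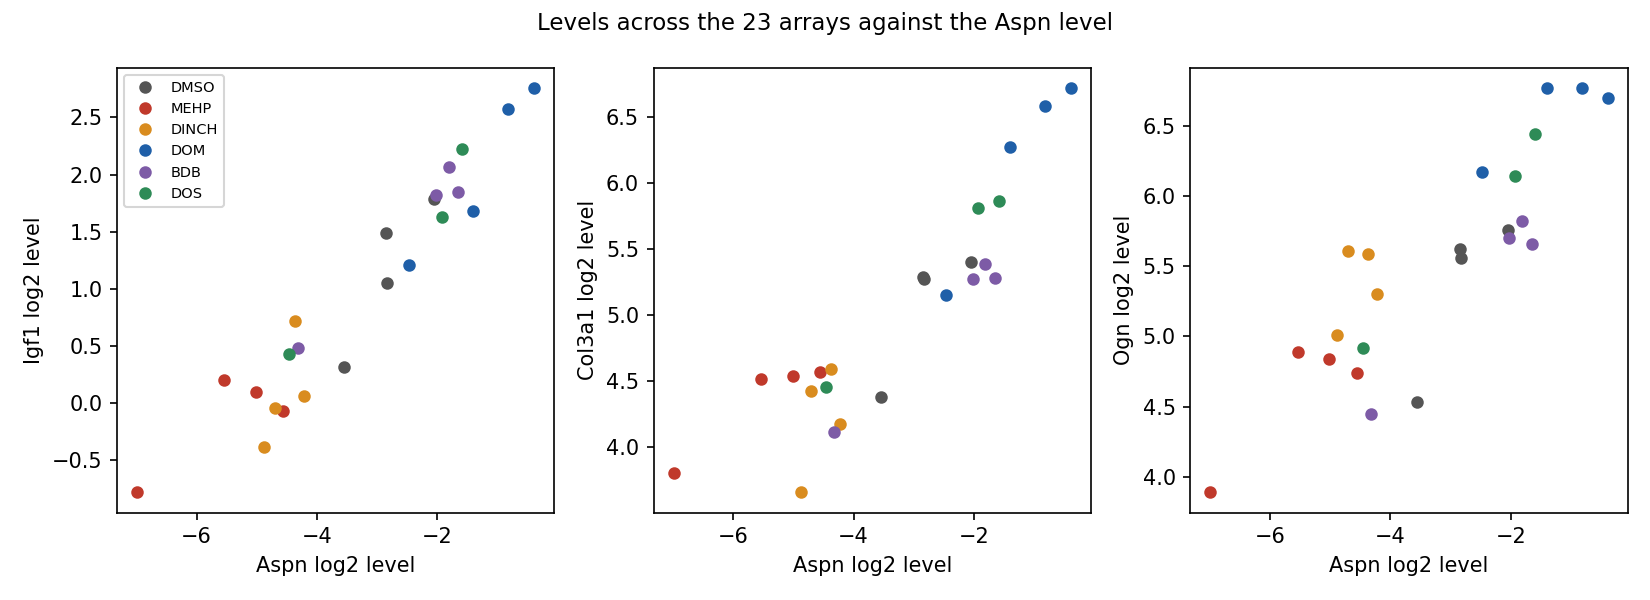
Level of Igf1, Col3a1 and Ogn (y axes) against the level of Aspn (x axes) on the 23 arrays, all in log2 signal over the 75th percentile of the array, with 1 color per group. The DOM arrays lie at the upper right and the MEHP and DINCH arrays at the lower left, with r = 0.958 for Igf1, 0.909 for Col3a1 and 0.87 for Ogn.

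Genes other than the members were tested, although their lists too were chosen with earlier results of these data known, so their p-values are not independent evidence. Of 10 other small leucine-rich proteoglycans, Omd, Podnl1 and Tsku were well above background on all 23 arrays and Chad on 20. Chadl was so on 7 and Optc on 3 arrays, the latter all with DOM, and Ecm2, Epyc, Kera and Nyx on none. Podnl1, a relative of Podn, was higher with each of the 3 compounds that had called genes. It rose by 0.67 with MEHP (SE 0.08, limma adjusted p = 0.00911), by 0.71 with DINCH (SE 0.12, adjusted p = 0.00949) and by 1.35 with DOM (SE 0.14, adjusted p = 0.000331). In each case all 4 arrays lay above every DMSO array. Podnl1 was also higher with DOM than with DOS, by 1.01 (SE 0.15, adjusted p = 0.00437), and than with DINCH, by 0.64 (SE 0.15, adjusted p = 0.0109). The call against DINCH was lost without DINCH replicate 3 or DOM replicate 4, without replicate 1 of both groups and with normexp background correction. The call with MEHP was also lost with normexp, and without a filter on dim probes only the call of DOM against DMSO was left. With BDB and DOS its differences from DMSO were 0.20 (SE 0.10, adjusted p = 0.415) and 0.34 (SE 0.11, adjusted p = 0.555). The BDB and DOS arrays, with lowest levels of -0.29 and -0.17, also all lay above the highest DMSO array, at -0.32.

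Omd (osteomodulin), which lies between Aspn and Ogn, had a difference of -0.97 with MEHP (SE 0.26, limma adjusted p = 0.104). It was called without DMSO replicate 1, without replicate 1 of both groups and with the replicate number as a block. With DOM it differed from DMSO by 0.67 (SE 0.29, adjusted p = 0.107) and from DINCH by 0.64 (SE 0.19, adjusted p = 0.0314). This last difference was called, but in only 6 of 18 alternatives, and not without DINCH replicate 1, 2 or 3 or DOM replicate 1, 2 or 3. It was also not called with the replicate number as a block. Between DOM and DOS Omd differed by 0.18 (SE 0.28). Against DMSO it differed by 0.49 (SE 0.33) with DOS, 0.25 (SE 0.32) with BDB and 0.03 (SE 0.24) with DINCH. None of these differences was called. Tsku and Chad were not called in any comparison in which they were tested. Tsku differed by -0.49 between DOM and DINCH (SE 0.13, adjusted p = 0.0159), which was below the 1.5-fold limit. Cenpp, whose interval spans the cluster, was examined after the values of Aspn and Ogn were seen. It fell by 1.36 with DOM (SE 0.11, limma adjusted p = 0.000208), from a mean level of 1.5 with DMSO to 0.14. Its differences from DMSO with the other 4 compounds lay between -0.05 and 0.15, and none was called.

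Beyond the small proteoglycans, 4 more lists covered the enzymes that build chondroitin, dermatan and keratan sulfate chains, other proteoglycans, and collagen and elastic fiber genes. Together the 5 lists held 98 genes, 96 of them with a probe. With DOM, 18 of 69 tested genes (26.1%, beside 20.5% of all genes) were called against DMSO, 13 higher and 5 lower, and their median difference was 0.20 beside -0.03 over all genes tested. With DINCH it was 10 of 69 (14.5%, beside 8.26%), 2 higher and 8 lower, with a median of -0.10 beside 0. With MEHP 2 of 69 (2.9%, beside 1.68%) were called, Podnl1 higher and Fbln5 lower, and with BDB and DOS none of 69 and 68. Between DOM and DINCH 31 of 68 (45.6%, beside 23.3%) were called, 26 higher and 5 lower with DOM, at a median of 0.36. Between DOM and DOS it was 13 of 68 (19.1%, beside 15.2%), 8 higher and 5 lower, at a median of 0.09.

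These counts moved with single arrays in some comparisons. With DINCH they were 3 without DMSO replicate 2, 4 without DMSO replicate 3 or 4, 5 without DINCH replicate 1 and 2 without DINCH replicate 4, and Gpc4 and Podnl1 were called whichever single array was left out. With MEHP the count was 4 without DMSO replicate 1 and 1, Podnl1, without DMSO replicate 2 or 3 or any of the MEHP replicates. Between DOM and DOS it was 7 without DOM replicate 2 or DOS replicate 4.

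With DOM, 6 of 21 enzymes of the linker and of chondroitin or dermatan sulfate were called against DMSO, 5 higher and 1 lower. This was 28.6%, beside 20.5% of all genes. Chst11, which adds sulfate to chondroitin, rose by 1.12 (SE 0.17, limma adjusted p = 0.00167), and Chst3, another chondroitin sulfotransferase, by 0.90 (SE 0.17, adjusted p = 0.00398). Chpf2, a chondroitin polymerizing factor, rose by 0.83 (SE 0.11, adjusted p = 0.000875), and Pxylp1, which removes the phosphate from the xylose of the linker, by 0.84 (SE 0.15, adjusted p = 0.00363). Chst7, also a chondroitin sulfotransferase, fell by 1.33 (SE 0.19, adjusted p = 0.0012) and was well above background on 2 of 4 DOM arrays. Sulfotransferases of this list thus changed in both directions. Of 5 keratan sulfate enzymes, Chst1 fell by 0.59 (SE 0.14, adjusted p = 0.0114), near the 1.5-fold limit, and the other 4 were not called. The called share was 20%, beside 20.5% of all genes. Chst1 stayed called in 8 of 18 alternatives, and not without DMSO replicate 1 or 2 or DOM replicate 1 or 2.

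Among 26 collagen and elastic fiber genes tested with DOM, 5 were higher and 3 lower (30.8% called, beside 20.5% of all genes). Thbs1 (thrombospondin) rose by 1.81 (SE 0.23, limma adjusted p = 0.00075), Col5a2 by 0.90 (SE 0.19, adjusted p = 0.00732) and the lysyl oxidase family gene Loxl3 by 0.83 (SE 0.13, adjusted p = 0.00198). Pcolce2, whose product enhances the trimming of procollagen, fell by 2.04 (SE 0.29, adjusted p = 0.00122), and Loxl4 fell by 1.05 (SE 0.08, adjusted p = 0.000202). Of 13 other proteoglycans 2 were called, both higher (15.4%, beside 20.5% of all genes). Gpc6, a glypican, rose by 1.07 (SE 0.20, adjusted p = 0.0043) and Agrn (agrin) by 0.71 (SE 0.14, adjusted p = 0.0053). The same direction was called against DOS for Chst11 (1.07), Chpf2 (0.66), Pxylp1 (0.63), Thbs1 (1.09), Col5a2 (0.79), Loxl3 (0.69) and Gpc6 (1.20), and for Chst7 (-1.12), Pcolce2 (-1.81) and Loxl4 (-0.83). Of these, Chst11, Gpc6, Chst7, Pcolce2 and Loxl4 stayed called whichever single array was left out. Against DOS, Thbs1 and Col5a2 were not called without DOM replicate 2 or 3 or DOS replicate 1 or 4, and Thbs1 also not without DOM replicate 4. Chpf2 and Loxl3 were not called without DOM replicate 2 or DOS replicate 1 or 4, nor Pxylp1 without DOM replicate 4 or DOS replicate 1 or 3. The Loxl3 call was also lost with the replicate number as a block.

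**Figure D4:**
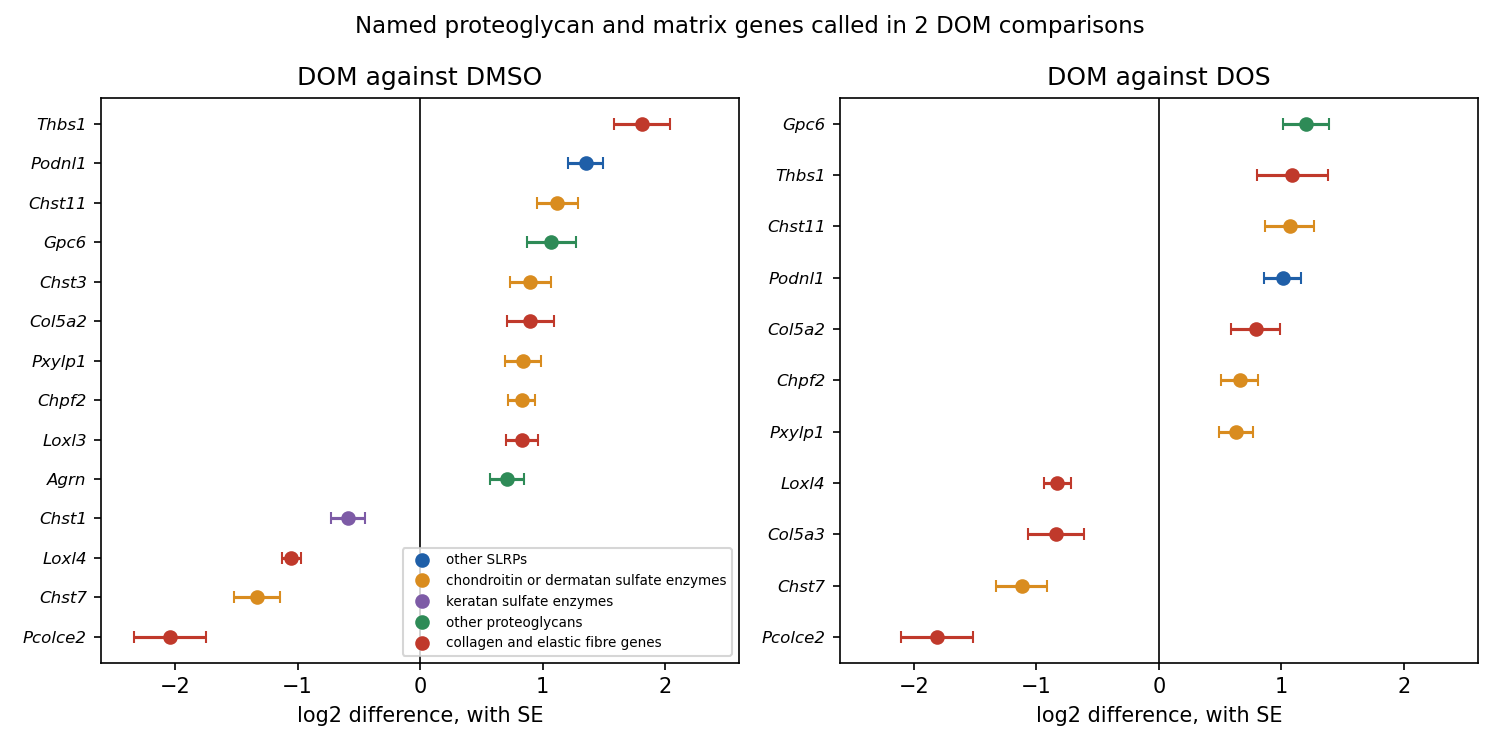
Log2 differences (x axis, with bars for the SE) of the listed proteoglycan and matrix genes called and named for DOM against DMSO (left) and DOM against DOS (right), colored by list. Thbs1 at 1.81 and Pcolce2 at -2.04 are the farthest from 0 against DMSO, and Gpc6 at 1.20 and Pcolce2 at -1.81 against DOS.

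With DINCH the called genes were mostly lower. Fbn1, which encodes the microfibril protein fibrillin, fell by 1.26 (SE 0.27, limma adjusted p = 0.022), Col5a3 by 0.92 (SE 0.19, adjusted p = 0.0192) and Fbln5, an elastic fiber gene, by 0.78 (SE 0.18, adjusted p = 0.0271). Loxl2 fell by 0.63 (SE 0.16, adjusted p = 0.0405), whereas Col11a1 rose by 0.76 (SE 0.17, adjusted p = 0.0237). Among the enzymes, B3galt6, which adds a galactose to the linker, fell by 0.93 (SE 0.25, adjusted p = 0.0443) and Chpf by 0.59 (SE 0.10, adjusted p = 0.00895). The cell surface proteoglycans Gpc4 and Sdc4 fell by 0.65 (SE 0.12, adjusted p = 0.0135) and 0.62 (SE 0.13, adjusted p = 0.0211). With MEHP, Fbln5 fell by 0.72 (SE 0.13, adjusted p = 0.0307). Of these DINCH calls only that of Gpc4 was kept whichever single array was left out. Col5a3 was not called without DMSO replicate 3 or DINCH replicate 4, and Chpf not without DMSO replicate 2 or 4 or DINCH replicate 1 or 4. The calls of Fbn1 and Sdc4 were kept in 3 of the 8 fits with 1 array left out, those of Fbln5 and Col11a1 in 2, and those of Loxl2 and B3galt6 in 1. With MEHP, Fbln5 was called in 1 of 8 such fits, that without DMSO replicate 1.

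Between DOM and DINCH the collagen gene Col3a1 was higher with DOM by 1.96 (SE 0.33, limma adjusted p = 0.00185), Thbs1 by 2.35 (SE 0.27, adjusted p = 0.00024) and Col6a2 by 1.21 (SE 0.26, adjusted p = 0.00607). Fbn1 differed by 1.33 (SE 0.29, adjusted p = 0.0076), Gpc6 by 1.71 (SE 0.25, adjusted p = 0.000866) and Sdc4 by 0.99 (SE 0.12, adjusted p = 0.000339). Csgalnact1, which starts the chondroitin chain, was higher by 0.93 (SE 0.13, adjusted p = 0.000712).

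Markers of cell types moved in the same comparisons. The summed level of the 18 Sertoli cell markers was 5.68 to 6.25 with DOM and 4.44 to 5.14 with DMSO. Inhbb, the brightest of them, made up 75.9% to 85.3% of the linear sum with DOM and 46.0% to 67.0% with DMSO, and without it the summed level was 3.48 to 3.66 and 3.47 to 3.55. Of 11 Sertoli cell markers tested with DOM, 2 were higher and 1 lower (27.3% called, beside 20.5% of all genes), at a median difference of 0.11. The inhibin subunit genes Inhbb and Inha rose by 1.61 (SE 0.27, limma adjusted p = 0.00248) and 1.05 (SE 0.14, adjusted p = 0.000815), while Sox9 fell by 0.92 (SE 0.15, adjusted p = 0.00253). The summed level of the 12 peritubular and fibroblast markers was 7.76 to 8.20 with DMSO, 7.51 to 7.89 with MEHP, 7.88 to 8.25 with DINCH, 7.59 to 8.09 with DOM, 7.92 to 8.37 with BDB and 8.31 to 8.75 with DOS. Of these, Pdgfrb rose by 1.56 (SE 0.16, adjusted p = 0.000375) and Pdgfra by 0.86 (SE 0.16, adjusted p = 0.00383) with DOM, while Cnn1 fell by 1.21 (SE 0.16, adjusted p = 0.000967).

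With DINCH, the Sertoli cell markers Dhh and Inha rose by 1.09 (SE 0.14, limma adjusted p = 0.00409) and 0.64 (SE 0.15, adjusted p = 0.0276) against DMSO. With MEHP, BDB and DOS no marker of the 5 cell type lists was called. Between DOM and DINCH, 4 of 9 Sertoli cell markers (44.4%) and 3 of 6 peritubular and fibroblast markers (50%) were called, beside 23.3% of all genes. Inhbb was higher with DOM by 2.49 (SE 0.24, adjusted p = 0.000118), and Dhh and Cnn1 differed by -1.48 (SE 0.17, adjusted p = 0.000268) and -1.55 (SE 0.15, adjusted p = 0.00012). Between DOM and DOS it was 5 of 12 (41.7%) and 3 of 6 (50%), beside 15.2% of all genes. Here Inhbb was higher with DOM by 1.16 (SE 0.31, adjusted p = 0.0337) and Cnn1 differed by -2.02 (SE 0.16, adjusted p = 0.000998). Unlike the calls of the 5 lists above, those of cell type markers were not followed through the fits with single arrays left out.

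Some markers of other cell types were also detected on all 23 arrays. They were Cyp17a1 of 7 Leydig cell markers, Prm1 and Prm2 of 8 germ cell markers, and Cd14, Csf1r and Itgam of 7 macrophage markers. Cyp17a1 had a mean level of 3.68 and Itgam of 3.35 with DMSO. Cyp17a1 was lower with DOM than with DINCH, at a difference of -0.65 (SE 0.18, limma adjusted p = 0.0197), the one call among these 3 lists in the 7 comparisons. Leydig cell markers Cyp11a1, Hsd17b3, Hsd3b1, Hsd3b6 and Lhcgr, germ cell markers Acrv1, Dazl, Ddx4 and Stra8, and macrophage markers Adgre1, Lyz2, Mrc1 and Ptprc were not well above background on any array. The summed levels ran from 3.05 to 4.43 for the Leydig, -1.02 to -0.11 for the germ cell and 3.71 to 4.47 for the macrophage markers. The part of all these markers in the differences of Aspn and Ogn was not tested.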

How the data were processed

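RNA of TM4 cells was labeled with Cy3 and hybridized to 23 1-color Agilent arrays. The authors extracted spots with Feature Extraction, and the deposited intensity values were background-subtracted and detrended but not scaled between arrays. A second deposited set of values, on the log2 scale, shifted by the authors to the 75th percentile and centered on each probe's median, served as an alternative and correlated at 0.9996 or more with the same arrays. According to the methods, 1 further DOS replicate was left out for high background.

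Here intensities were floored at 1, put on the log2 scale and set relative to the 75th percentile of the 59305 non-control spots of the array. After outlier spots (102 to 187 in each array) had been removed, spots of 1 probe were averaged. Probes were named through RefSeq accessions, which matched 26582 of 55681 probes. The array was designed on another build than GRCm38.p6, so no positions are given except for the RefSeq promoters. A probe entered a fit if, in 1 of the groups compared, all arrays had it well above background and not below their 20th percentile. Each comparison was fitted with limma 3.58.1 in R 4.3.3 on its 2 groups, two-sided, with Benjamini-Hochberg adjustment over all tested probes. The steps were tested on simulated data.

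Members and lists were chosen with earlier results of these data known. Members are given by their brightest probe. Other genes are named if called with no overlap of arrays, at most 5 per list and comparison, with all tested small leucine-rich proteoglycans and the 5 genes most like Aspn, of which 1 is not reported here. The methods of the paper call the replicates biological. The sample labels do not state a separate culture for each array. The p-values therefore measure the spread between these samples of 1 cell line.

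In some comparisons same-numbered arrays deviated together in every pair, which comes from the values and not from the labels. The lowest r was 0.17 for DINCH, 0.25 for BDB and 0.20 for DOS against DMSO, and just above 0.1 for DOM against DOS. In the other comparisons not every pair did so. There the lowest r was -0.14 for MEHP and 0.04 for DOM against DMSO, and -0.03 for DOM against DINCH. Printed differences and SEs are nevertheless those of the unpaired fit. The fit with the replicate number as a block is given for counts of called genes and for Omd and Loxl3. Among the other genes of the 5 lists, this fit added Fbn1 and Col3a1 with MEHP, and Col3a1 and Gpc6 with DINCH. It also added Col6a2 with DOM and Col3a1 for DOM against DOS, and dropped Ust for DOM against DINCH. Alternatives were quantile normalization, normexp correction with an offset of 50 on the median signals, no filter, detection on at least 1 array, slide and replicate blocks, all groups in 1 fit, the authors' log2 values, brightest probes only, and leaving out arrays. Plots used matplotlib 3.10.9 under Python 3.11.15.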

Additional observations from a re-analysis of the deposited data

Results flagged for a closer look

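Within the groups of 4 arrays, an array was marked when its gap to the nearest other array, divided by the range of the group, was above Dixon's 95% critical value for 4 values. Chance marks about 1 in 20 groups, and 35 groups of a member were examined, of which 9 were marked. For Ogn, replicate 1 stood below the other arrays with DMSO (0.837), MEHP (0.85), DOM (0.883) and BDB (0.883). For Bgn, replicate 1 did so with MEHP (0.891) and DOM (0.882), and for Aspn with BDB (0.861). For the dim Fmod probe the array was DMSO replicate 1 (0.887). For Podn, at background on every array, it was DINCH replicate 3 (0.855). In 8 of the 9 cases the array was therefore a replicate 1 array.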

How the results depend on the processing

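Under the alternatives and with arrays left out, 94 of 98 Aspn differences and 97 of 98 Fmod differences stayed within 1 SD of the reported value, as did all 98 each of Ogn, Dcn, Bgn, Lum and Podn. The 4 Aspn exceptions are the normexp values given above, and Fmod with DOS was -0.02 with normexp. As a description, members called with MEHP (2) were 1 with normexp, 0 without a filter on dim probes and 0 with detection on at least 1 array, and 0 to 2 with single arrays left out. With DINCH (1) they were 0 without a filter, 0 with all groups in 1 fit, 2 with only the brightest probes, and 1 to 2 with arrays left out. With normexp the DINCH count was also 1, but the member called was Dcn in place of Aspn. With DOM (2) they were 1 without a filter, 1 with detection on 1 array, 1 with all groups in 1 fit, and 1 to 2 with arrays left out. Between DOM and DOS (0) it was 1 (Aspn) with the replicate block. Listed genes called with MEHP (2) were 0 without a filter, 1 with detection on 1 array, 4 with slide as a block, 5 with the replicate block and 1 to 5 with arrays left out. With DINCH (10) they were 0 without a filter, 3 with detection on 1 array, and 2 to 9 with arrays left out. With BDB (0) they were 1 with normexp, 1 with slide as a block and 1 with all groups in 1 fit. Between DOM and DINCH (31) they were 18 with normexp and 20 without a filter. Between DOM and DOS (13) they were 0 without a filter and 7 to 13 with arrays left out. Without a filter more probes were tested; the other causes were not tested. For MEHP, DOM against DMSO and DOM against DINCH not every pair of same-numbered arrays correlated above 0.1 (lowest -0.14, 0.04 and -0.03); with the replicate block 3 members were called with MEHP (Ogn added), 3 with DOM (Dcn added) and 2 for DOM against DINCH. The replicate block changed no other count of members and moved no other count of listed genes by over 1.5 times. Over all genes, calls with MEHP were 3 without a filter and with DINCH 97, beside 201 and 984. Leaving out replicate 1 of both groups was chosen after seeing the data. Signal over background limits Aspn with MEHP and DINCH, and Fmod, Lum and Podn throughout.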
